A study of Mus musculus with 16 samples.

Results

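The 10 genes described here encode the ligands through which a tumor cell can engage inhibitory or co-stimulatory immune receptors, and they were taken by symbol from the deposited count tables of KPC1199 cells, a mouse pancreatic cancer line. They were Cd274, Pdcd1lg2, Cd80, Cd86, Cd276, Tnfrsf14, Pvr, Nectin2, Lgals9 and Cd47. All 10 were found, among 55414 named genes in the table of untreated cells and 56980 in the table of the IFNγ experiment. Cd274 rose 9.22-fold in control and 12.8-fold in Sin3B-deficient cells with IFNγ and started from a lower level in the latter. Tnfrsf14 went from 0 to 7 counts per library to 24 to 57 with IFNγ, Lgals9 and Cd47 rose by 1.14-fold to 1.38-fold, and Cd86 had no count in any library.

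Checkpoint ligands act on receptors of T cells, natural killer cells and macrophages. PD-L1 (Cd274) and PD-L2 (Pdcd1lg2) bind PD-1 on T cells, the B7 molecules CD80 and CD86 bind CD28 and CTLA-4, poliovirus receptor (Pvr) and nectin-2 bind TIGIT and CD226, HVEM (Tnfrsf14) binds BTLA and CD160, galectin-9 (Lgals9) is a ligand of TIM-3, and CD47 binds SIRPα on macrophages and restrains phagocytosis. IFNγ acts through its receptor and the kinases JAK1 and JAK2, which leads to induction of the transcription factor IRF1, and Cd274 is a long-known target of that pathway. Sin3B is a scaffold of a corepressor complex that carries histone deacetylases.

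KPC1199 cells carry Pdx-cre and mutant Trp53R172H, and in all 6 groups they were transduced with lentiCRISPR v2 and selected with puromycin. sgCtrL cells carried a control guide, in columns named after a lacZ guide, and Sin3Bsg1 cells carried guide 1 against Sin3b, and neither is labelled as a single-cell clone. In the first experiment the cells were left untreated, with 2 libraries per genotype. In the second, each genotype was cultured without IFNγ or with 10 ng/ml IFNγ for 24 h, with 3 libraries per group. The labels do not say that replicates came from separate cultures, and the methods of the study speak of independent experiments in general without naming these libraries, so p-values are taken to measure only the spread between these samples. All cells were in culture, without immune cells, and the transcript of a ligand is not its amount on the surface.

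Total counts ran from 18128055 to 32311721 in the 16 libraries. Sin3b, the targeted gene, was lower in every Sin3Bsg1 group, at 35.3 ± 1.71 counts-per-million (CPM) against 85.9 ± 3.65 in untreated cells (SD, n = 2) and 39.1 ± 0.411 against 92.4 ± 3.61 without IFNγ (SD, n = 3). Replicate 1 of sgCtrL with IFNγ stood apart from its 2 group mates, by a chi-square statistic averaging 23.2 and 19.5 over genes, compared with 4.12 between the other two, so results that rest on this library are given with and without it. Of 10 immune cell markers, Cd3e, Adgre1 and Itgax were among those with no count in any library, and the list summed to 9.67 to 14.7 transcripts-per-million (TPM) over the groups, of which Cd68 was the member above 3 counts in every group. All 6 epithelial markers were present. Their sum was 7187.7 to 7293.3 TPM in untreated Sin3Bsg1 cells against 5432.9 to 5450.8 in sgCtrL cells, 4096.1 to 4193.4 against 3788.8 to 3867.6 without IFNγ, and 5090.2 to 5274.1 against 3836.9 to 4556.4 with IFNγ. The sum of 6 fibroblast markers was lower in Sin3Bsg1 cells, at 10.1 to 11.1 against 31.7 to 32.0 TPM untreated, 76.7 to 80.5 against 86.2 to 89.7 without IFNγ and 55.3 to 61.3 against 63.6 to 65.1 with IFNγ. Its members did not all move alike, since in the second experiment Pdgfra was lower (log2 difference -0.26 without and -0.21 with IFNγ) and Pdgfrb higher (0.19 and 0.27), all called by edgeR. The part of these marker shifts in the results below was not tested, and in bulk RNA fewer cells of a type and less RNA per cell cannot be told apart.

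Compared per transcript length, the 10 genes spanned the whole range of expression. Cd47 was the most abundant in each of the 6 groups, from a mean of 604.1 TPM in untreated Sin3Bsg1 cells to 989.0 TPM in sgCtrL cells with IFNγ, above at least 99.0% of the genes with a count. Lgals9 came next in all groups, at 95.4 to 163.2 TPM. Without IFNγ, Cd276, Pvr and Nectin2 followed at 29.8 to 44.9 TPM and Cd274 had rank 6, at 2.65 to 3.88 TPM in the first experiment and 7.90 to 11.2 TPM in the second. With IFNγ, Cd274 took rank 3 in both genotypes, at 97.9 ± 4.32 TPM in sgCtrL and 94.6 ± 5.54 TPM in Sin3Bsg1 (SD, n = 3). Among neighbours in this order, the libraries overlapped for Cd276 and Pvr in sgCtrL cells with and without IFNγ and for Cd276 and Nectin2 in both genotypes with IFNγ, and these pairs were not separated. Tnfrsf14 reached 2.83 to 3.99 TPM with IFNγ, and Pdcd1lg2 and Cd80 never exceeded a group mean of 0.563 TPM. Cd47 exceeded Cd274 on this scale by 181.3-fold and 230.2-fold in untreated sgCtrL and Sin3Bsg1 cells, by 78.6-fold and 103.1-fold without IFNγ, and by 10.1-fold and 9.18-fold with IFNγ (means over libraries of the TPM ratio). The 2 tables were scaled separately, so levels set side by side across the experiments carry no test.

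**Figure D1:**
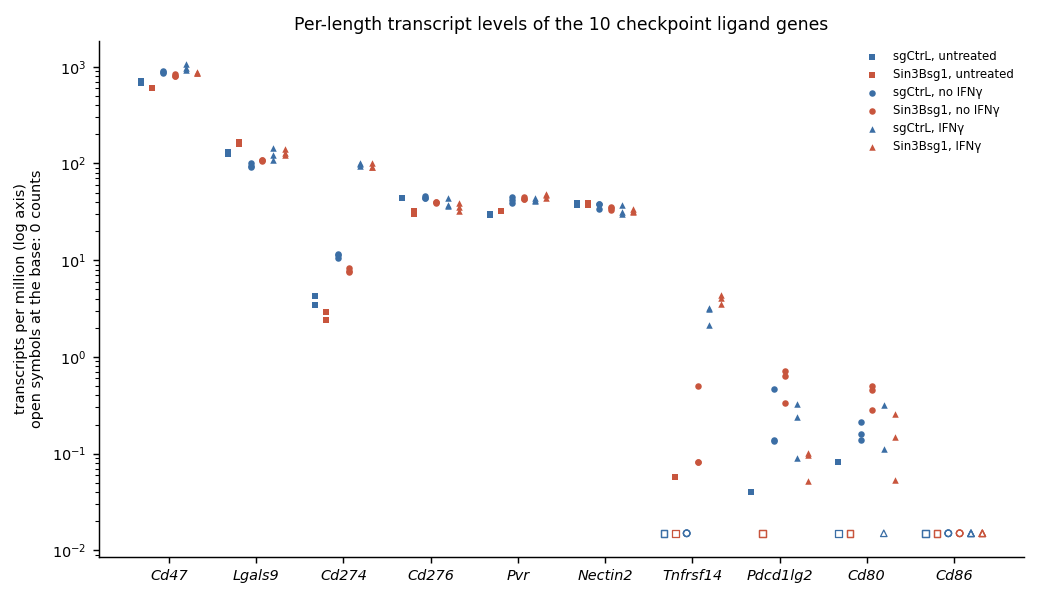
TPM (log axis) of the 10 genes, 1 symbol per library, blue for sgCtrL and red for Sin3Bsg1, with squares for untreated cells, circles for no IFNγ and triangles for IFNγ. Cd47 is highest in every library, Cd274 moves from rank 6 to rank 3 with IFNγ, and open symbols at the base mark libraries with 0 counts, which include all 16 for Cd86.

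PD-L1, encoded by Cd274 (GRCm39, chr19:29344529-29365495, plus strand, protein-coding), was the member that IFNγ raised most among those with counts in every library. Without IFNγ its level was 19.2, 17.6 and 18.8 CPM for sgCtrL (3 libraries) and 12.3, 13.7 and 12.6 CPM for Sin3Bsg1 (3 libraries). With IFNγ it was 161.6, 180.1 and 170.5 CPM in sgCtrL and 169.4, 161.5 and 162.7 CPM in Sin3Bsg1. The basal levels of the genotypes did not overlap, and the IFNγ-treated levels did. The induction was 9.22-fold in sgCtrL (log2 fold change 3.21, SE 0.06, edgeR quasi-likelihood test, Benjamini-Hochberg adjusted p = 3.41e-16) and 12.8-fold in Sin3Bsg1 (log2 fold change 3.68, SE 0.061, adjusted p = 8.39e-17 by edgeR). Without the replicate 1 that stood apart, the log2 induction in sgCtrL was 3.23.

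Before IFNγ, Cd274 was lower in Sin3Bsg1 cells than in sgCtrL cells, at 0.695 of its level (log2 fold change -0.53, SE 0.067, edgeR adjusted p = 4.21e-05). In the first experiment the untreated libraries had 7.59 and 6.09 CPM in sgCtrL and 4.23 and 5.11 CPM in Sin3Bsg1, again without overlap, and the fold was 0.683 (log2 fold change -0.55, SE 0.16, edgeR adjusted p = 0.0155). With 2 libraries per group that call was lost by DESeq2 (adjusted p = 0.0744), without sgCtrL replicate 1 (adjusted p = 0.161) and without Sin3Bsg1 replicate 1 (adjusted p = 0.0874), all from models over every gene tested. In IFNγ-treated cells the genotypes differed by -0.054 on the log2 scale (SE 0.05, edgeR adjusted p = 0.53), and by -0.079 (adjusted p = 0.264) without the replicate 1 that stood apart. The exons of Cd274 share 581 bases with Gm36043 and 219 bases with Plgrkt on the other strand, and no source used here gives the strand setting of the counting, so reads of these antisense partners cannot be told apart from its own.

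The difference between the inductions was itself tested. The interaction of genotype and IFNγ for Cd274 was 0.47 on the log2 scale (SE 0.084, edgeR adjusted p = 0.0454), which is a 1.39-fold larger rise in Sin3Bsg1 cells. It was the single call among the 7 members tested, against 0.114% of all 14913 genes called in this comparison. The size of the difference was 0.43 to 0.52 when any library was left out, but its call was lost in 10 of these 12 fits, with adjusted p up to 0.245, and it was kept without sgCtrL IFNγ replicate 1 (adjusted p = 0.0231) and without sgCtrL IFNγ replicate 2 (adjusted p = 0.0431). DESeq2 gave 0.46 (adjusted p = 0.00558), and size factors of the RLE kind gave 0.46 (adjusted p = 0.0602). For the other 6 members the interaction did not pass the test, with adjusted p between 0.819 and 0.993 by edgeR. Those of Lgals9, Cd47, Cd276, Pvr and Nectin2 lay between -0.099 and 0.093 on the log2 scale.

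**Figure D2:**
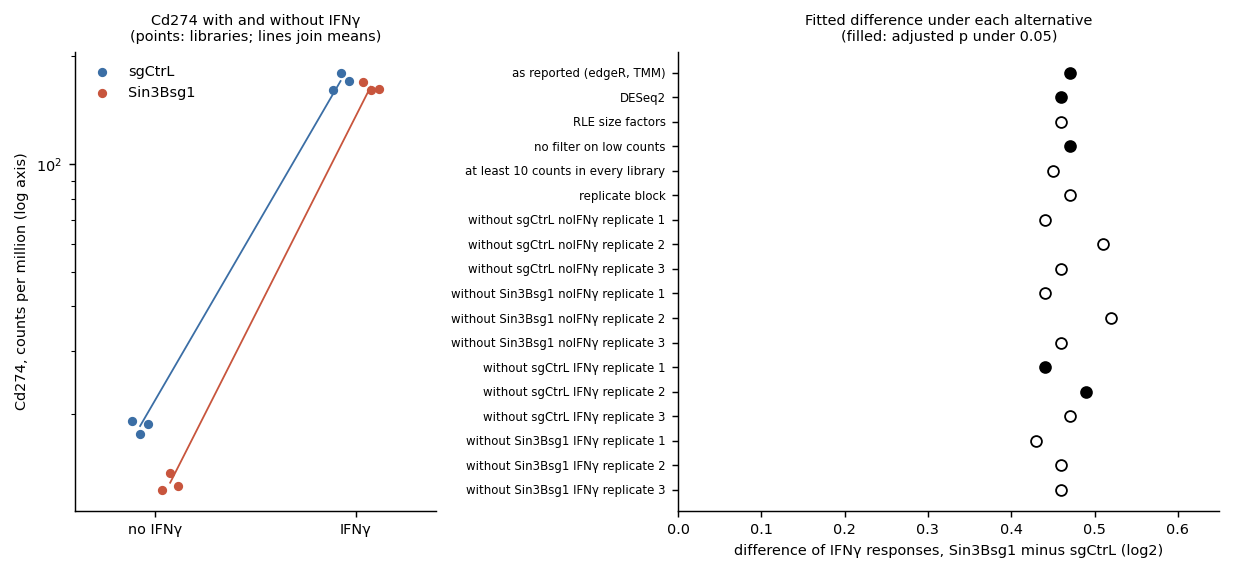
Left, Cd274 in CPM (log axis) for each library without and with IFNγ, blue for sgCtrL and red for Sin3Bsg1, with lines joining the group means. Right, the log2 difference between the IFNγ responses (Sin3Bsg1 minus sgCtrL) as reported and under each alternative, filled where the adjusted p was under 0.05: the size stays at 0.43 to 0.52 while the call depends on the fit.

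Of the members tested, 4 of 7 changed with IFNγ in sgCtrL cells (Cd274, Tnfrsf14, Lgals9 and Cd47) and 5 of 7 in Sin3Bsg1 cells (the same 4 genes and Pvr), all of them upward. Over all genes tested, 30.2% were called with IFNγ in sgCtrL and 28.4% in Sin3Bsg1. The median log2 fold change of the tested members was 0.24 in sgCtrL and 0.19 in Sin3Bsg1, beside -0.00062 and 0.0052 over all genes, and the sgCtrL median is the same with Tnfrsf14 at its lower bound. Those that were not tested, Pdcd1lg2, Cd80 and Cd86, fell under the filter on low counts. Tnfrsf14 passed that filter only through its IFNγ-treated libraries, so its calls here are no independent support for a response of the list. It was not tested when at least 10 counts were required in every library.

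HVEM, encoded by Tnfrsf14 (GRCm39, chr4:155005126-155013020, minus strand, protein-coding), was rarely read in the absence of IFNγ. It had 0 counts in each of the 3 sgCtrL libraries without IFNγ and 7, 1 and 1 counts in the Sin3Bsg1 libraries. With IFNγ it had 24, 49 and 39 counts in sgCtrL and 57, 57 and 48 in Sin3Bsg1, or 1.60 ± 0.355 and 2.25 ± 0.166 CPM (SD, n = 3). Every treated library lay above every untreated one. Against a floor of 3 counts per library, the level in sgCtrL was at least 10.7-fold higher with IFNγ, and the test passed (edgeR adjusted p = 9.19e-06). In Sin3Bsg1 cells the ratio of summed counts was 18.1, with an exact 95% counting interval of 9.32 to 40.4 (162 counts with IFNγ and 9 without, adjusted p = 1.77e-05 by edgeR). Of the 9 counts, 7 came from replicate 1, and the fitted log2 rise of 4.13 was 5.53 without that library, the highest of the 12 fits that left out a library, and 3.76 in the lowest, with the call kept in all 12. The exact intervals cover counting error only. A comparison of the 2 inductions was not possible in size, since sgCtrL started at 0, and the fitted interaction did not pass the test (adjusted p = 0.819 by edgeR).

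The genotypes did not differ in Tnfrsf14 with IFNγ beyond the spread that the test allows (log2 fold change 0.48, SE 0.35, edgeR adjusted p = 0.401, and 0.33 without the replicate 1 that stood apart), although all 3 Sin3Bsg1 libraries lay above all 3 sgCtrL libraries. Without IFNγ the fit called Tnfrsf14 higher in Sin3Bsg1 (edgeR adjusted p = 0.0443), but 7 of the 9 counts came from replicate 1. Without that library the adjusted p was 0.241, and no fold is given because both groups lay at or under the floor of 3 counts per library on average. The untreated libraries of the first experiment had 0 and 0 counts in sgCtrL and 0 and 1 in Sin3Bsg1.

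Galectin-9, encoded by Lgals9 (GRCm39, chr11:78853800-78875798, minus strand, protein-coding), rose with IFNγ from a high base. Its level was 71.8, 67.5 and 67.6 CPM in sgCtrL without IFNγ and 109.2, 95.0 and 82.5 CPM with it. In Sin3Bsg1 it was 77.2, 77.3 and 75.6 CPM without and 103.0, 97.8 and 96.6 CPM with IFNγ. Treated libraries were higher than untreated ones in both genotypes, with no overlap. The rise was 1.38-fold in sgCtrL (log2 fold change 0.47, SE 0.075, edgeR adjusted p = 0.000186) and 1.29-fold in Sin3Bsg1 (log2 fold change 0.37, SE 0.074, adjusted p = 0.00125 by edgeR). The sgCtrL replicate with 109.2 CPM was the one that stood apart, and the log2 rise without it was 0.36.

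The genotype difference of Lgals9 varied between the experiments. Untreated Sin3Bsg1 cells had 128.9 and 123.3 CPM against 95.5 and 101.0 CPM in sgCtrL, which is 1.28-fold higher (log2 fold change 0.36, SE 0.038, edgeR adjusted p = 1.55e-06). In the second experiment, without IFNγ, all Sin3Bsg1 libraries lay above all sgCtrL libraries, but the 1.11-fold difference did not pass the test (log2 fold change 0.15, SE 0.076, edgeR adjusted p = 0.192). It passed when only the 6 libraries compared were fitted (adjusted p = 0.00701) and without the replicate 1 that stood apart (adjusted p = 0.0289). With IFNγ the genotypes differed by 0.054 on the log2 scale (SE 0.074, edgeR adjusted p = 0.691), and by 0.17 (adjusted p = 0.0391) without that library.

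The sequences before the transcription start of these 3 IFNγ-responsive genes are shown because they differ in a motif of interferon-stimulated genes. RefSeq promoter windows, from 250 bases before to 50 after an annotated start, were given for 8 of the 10 genes, not for Cd86 and Pvr, and each window matched 1 place in GRCm39. They were searched on both strands for the interferon-stimulated response element (TTTC, any 2 bases, then TTTC) and for the gamma-activated site (TTC, any 3 bases, then GAA). The first was found in the windows of Tnfrsf14, where it began 64 bases before the start, and of Lgals9, where one copy began 55 bases before the start and another 15 bases after it. Among all 32851 windows, 3.44% held the first motif and 8.30% the second, and no member's window held the second. The windows of Cd274, Cd276, Cd47, Cd80, Nectin2 and Pdcd1lg2 held neither, which says only that these letters are not in these windows. Except for Pdcd1lg2, the RefSeq starts of these windows lie inside the GENCODE genes. They are at base 29344838 for Cd274, 155012534 for Tnfrsf14, 78875750 for Lgals9 and 49676017 or 49676024 for Cd47. A search from another start would read other letters, for windows with and without a motif. The 250 bases before the start are given 5′ to 3′ on the strand of the gene, in lower case with the motif in capitals, as GRCm39 chr4:155012535-155012784 (minus) for Tnfrsf14, chr11:78875751-78876000 (minus) for Lgals9 and chr19:29344588-29344837 (plus) for Cd274.
Tnfrsf14: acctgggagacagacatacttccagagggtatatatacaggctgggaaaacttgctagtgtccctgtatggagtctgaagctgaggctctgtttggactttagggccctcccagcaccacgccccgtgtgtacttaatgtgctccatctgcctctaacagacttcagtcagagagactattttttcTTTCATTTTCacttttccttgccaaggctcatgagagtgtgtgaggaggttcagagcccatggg
Lgals9: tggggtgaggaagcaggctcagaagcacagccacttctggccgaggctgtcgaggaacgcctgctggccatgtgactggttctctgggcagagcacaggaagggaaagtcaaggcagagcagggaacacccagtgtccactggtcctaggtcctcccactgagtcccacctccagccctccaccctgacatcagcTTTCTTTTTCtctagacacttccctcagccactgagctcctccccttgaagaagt
Cd274: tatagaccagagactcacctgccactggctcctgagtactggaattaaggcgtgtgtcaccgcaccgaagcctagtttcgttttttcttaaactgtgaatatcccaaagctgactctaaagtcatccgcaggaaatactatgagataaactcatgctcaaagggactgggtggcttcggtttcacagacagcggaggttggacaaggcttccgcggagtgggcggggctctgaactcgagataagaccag

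CD47, encoded by Cd47 (GRCm39, chr16:49620896-49735373, plus strand, protein-coding), was lower in Sin3Bsg1 cells under all 3 conditions, by small amounts. Untreated sgCtrL libraries had 341.7 and 354.8 CPM and Sin3Bsg1 libraries 303.5 and 304.0 CPM. Without IFNγ the values were 419.5, 411.8 and 413.4 CPM in sgCtrL and 373.3, 372.6 and 385.7 CPM in Sin3Bsg1. With IFNγ they were 525.6, 468.2 and 479.7 CPM in sgCtrL and 425.3, 428.6 and 436.6 CPM in Sin3Bsg1. The genotypes overlapped under none of the 3 conditions. The fold was 0.872 in untreated cells (log2 fold change -0.20, SE 0.024, edgeR adjusted p = 9.14e-06), 0.909 without IFNγ (log2 fold change -0.14, SE 0.046, adjusted p = 0.0497) and 0.876 with IFNγ (log2 fold change -0.19, SE 0.045, adjusted p = 0.00832). The call without IFNγ lay at the threshold and was lost in 11 of the 12 fits that left out a library. With IFNγ the difference was -0.13 (adjusted p = 0.0143) without the replicate 1 that stood apart, and the call was lost when only the 6 libraries compared were fitted (adjusted p = 0.0643). IFNγ raised Cd47 by 1.18-fold in sgCtrL (log2 fold change 0.24, SE 0.046, edgeR adjusted p = 0.00075, and 0.18 without that library) and by 1.14-fold in Sin3Bsg1 (log2 fold change 0.19, SE 0.045, adjusted p = 0.00494 by edgeR), with treated and untreated libraries apart in both. The exons of Cd47 share 378 bases with Gm4633 and 89 bases with Gm5486 on the other strand, whose reads cannot be told apart from its own.

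B7-H3, encoded by Cd276 (GRCm39, chr9:58431412-58463665, minus strand, protein-coding), is a B7 family molecule whose receptor is not settled. Untreated sgCtrL libraries had 77.8 and 77.4 CPM and Sin3Bsg1 libraries 56.3 and 52.0 CPM. That was a fold of 0.698 (log2 fold change -0.52, SE 0.045, edgeR adjusted p = 2.04e-07), of a size like that of Cd274. In the second experiment the gap was narrower, at 71.5, 77.4 and 72.6 CPM in sgCtrL and 64.7, 64.7 and 63.3 CPM in Sin3Bsg1 without IFNγ. These groups did not overlap, and the fold was 0.869 (log2 fold change -0.20, SE 0.067, edgeR adjusted p = 0.049), a call at the threshold that DESeq2 did not make (adjusted p = 0.0575) and that was lost in 10 of the 12 fits without a library. With IFNγ the 76.1, 64.5 and 63.3 CPM of sgCtrL overlapped the 64.3, 62.7 and 57.6 CPM of Sin3Bsg1, and the log2 difference was -0.14 (SE 0.067, edgeR adjusted p = 0.177). Without the replicate with 76.1 CPM, which stood apart, that difference was -0.041 (adjusted p = 0.671). IFNγ did not change Cd276 past the threshold in either genotype (log2 fold change -0.12, adjusted p = 0.191 in sgCtrL and -0.061, adjusted p = 0.553 in Sin3Bsg1, by edgeR), although without that replicate the sgCtrL libraries were lower with IFNγ (log2 fold change -0.22, adjusted p = 0.00489). The exons of Cd276 share 506 bases with Gm10657 on the other strand.

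The TIGIT ligands lie close to each other on mouse chromosome 7, Pvr at chr7:19637503-19655085 and Nectin2 at chr7:19450569-19484408 (GRCm39, both minus strand and protein-coding), and moved little. Pvr had 51.8, 56.2 and 59.2 CPM in sgCtrL without IFNγ and 58.5, 62.4 and 57.2 CPM with it, which overlapped (log2 fold change 0.091, SE 0.057, edgeR adjusted p = 0.26). In Sin3Bsg1 it had 56.9, 59.4 and 55.6 CPM without and 65.8, 66.7 and 62.9 CPM with IFNγ, which did not overlap. The rise in Sin3Bsg1 was 1.14-fold (log2 fold change 0.18, SE 0.056, edgeR adjusted p = 0.0221), and its call was kept in 8 of the 12 fits that left out a library. Its calls in the 2 genotypes are not shown to differ, since the interaction of 0.093 (SE 0.08) had an adjusted p of 0.984 by edgeR.

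Pvr in untreated cells was 41.5 and 42.7 CPM in sgCtrL against 46.2 and 45.5 CPM in Sin3Bsg1, higher without overlap but not past the threshold (log2 fold change 0.12, SE 0.05, edgeR adjusted p = 0.0773). With IFNγ the log2 difference was 0.13 (adjusted p = 0.129) and without IFNγ it was 0.039 (adjusted p = 0.709). Nectin2 gave no call in any of the 6 comparisons, and its group means stayed between 42.5 and 50.9 CPM. Its largest fitted difference in the 5 simple comparisons was -0.10 (SE 0.074, edgeR adjusted p = 0.415), between the genotypes without IFNγ. Without the replicate 1 that stood apart, its IFNγ response in sgCtrL was -0.18 (adjusted p = 0.0415).

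**Figure D3:**
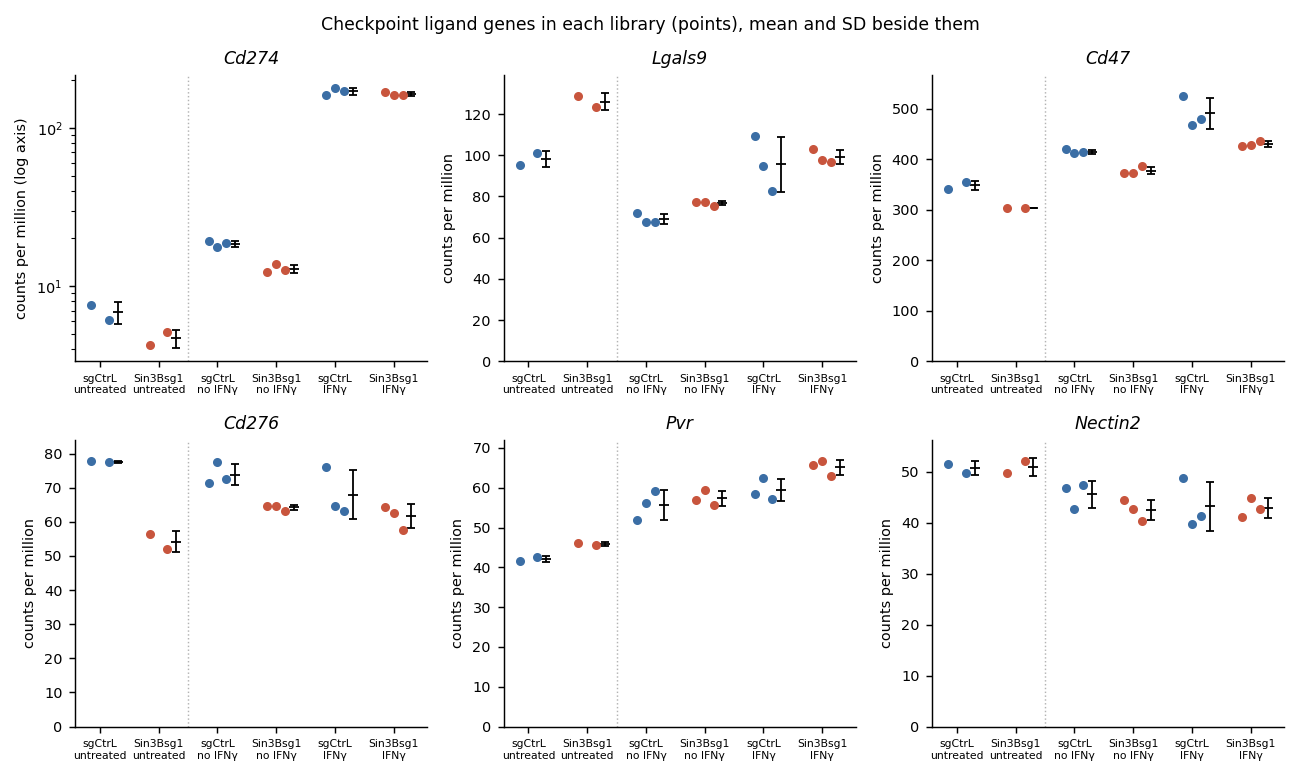
CPM of the 6 members with counts in every library, 1 point per library with the group mean and SD beside it (blue sgCtrL, red Sin3Bsg1, n = 2 untreated and n = 3 in the IFNγ experiment; Cd274 on a log axis, the others from 0). Cd274 rises with IFNγ in both genotypes, Cd47 is lower in Sin3Bsg1 in each pair of groups, and Nectin2 overlaps throughout.

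PD-L2 and the B7 molecules were at or near the floor. Pdcd1lg2 (GRCm39, chr19:29388319-29448882, plus strand), the neighbour of Cd274, had 2, 9 and 2 counts in sgCtrL without IFNγ and 4, 2 and 6 with it. In Sin3Bsg1 it had 13, 6 and 13 counts without IFNγ and 1, 2 and 2 with it, so it did not follow its neighbour upward. The ratio of summed counts in Sin3Bsg1, IFNγ over none, was 0.157 with an exact 95% counting interval of 0.0479 to 0.407, and with 3 libraries per group the exact permutation test (two-sided) gave its smallest possible p of 0.1. When no filter on low counts was applied, edgeR gave a log2 fold change of -2.58 (SE 0.87, adjusted p = 0.0233) for this contrast and none of the other comparisons of Pdcd1lg2 passed.

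Cd80 (GRCm39, chr16:38275923-38316697, plus strand) had 3, 3 and 2 counts in sgCtrL and 10, 5 and 8 counts in Sin3Bsg1 without IFNγ. With IFNγ it had 0, 7 and 2 counts in sgCtrL and 1, 3 and 5 in Sin3Bsg1. Its exons share 276 bases with the protein-coding Timmdc1 on the other strand, so these few counts may hold reads of that gene. The Sin3Bsg1 libraries without IFNγ were the highest as a group, at a ratio of 2.43 to sgCtrL with an exact counting interval of 1.05 to 6.27, and without the filter edgeR did not call this difference (log2 fold change 1.24, SE 0.89, adjusted p = 0.548). In Sin3Bsg1 the ratio with IFNγ to without was 0.394 (exact counting interval 0.161 to 0.884), which the unfiltered fit did not call either (adjusted p = 0.429 by edgeR). Cd86 (GRCm39, chr16:36424044-36486443, minus strand) had 0 counts in all 16 libraries, and a floor of 3 counts allows up to 0.0787 to 0.141 TPM per library group over the length of Cd86. In untreated cells of the first experiment, Pdcd1lg2 had 1 and 1 counts in sgCtrL and 0 and 0 in Sin3Bsg1, and Cd80 had 0 and 2 counts and 0 and 0.

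**Figure D4:**
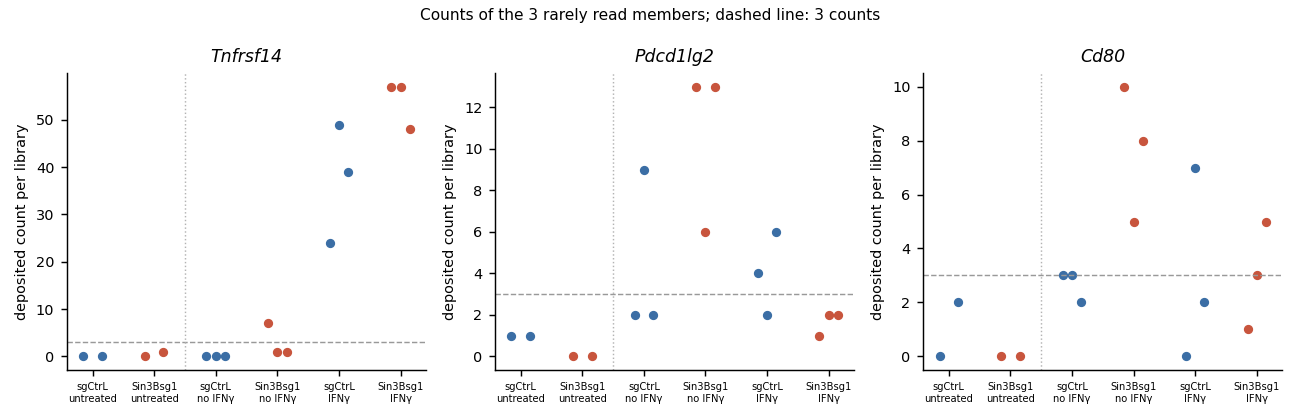
Deposited counts per library of Tnfrsf14, Pdcd1lg2 and Cd80 (blue sgCtrL, red Sin3Bsg1), with a dashed line at 3 counts. Tnfrsf14 reaches 24 to 57 counts with IFNγ, while Pdcd1lg2 and Cd80 stay at or below 13 counts in all libraries.

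Counted by genotype, 4 of the 6 members tested changed in untreated cells, Lgals9 upward and Cd274, Cd276 and Cd47 downward, against 31.1% of all 14589 genes called. Without IFNγ 4 of 7 were called, Cd274, Cd276 and Cd47 lower and Tnfrsf14 higher, against 17.2% of all genes. Tnfrsf14 entered this comparison only through its IFNγ-treated libraries. DESeq2 called 3, RLE size factors and the replicate block 2 each, the filter of at least 10 counts in every library 1, and the fits that left out a library 1 to 5, and Cd274 was called in all of them. With IFNγ Cd47 alone was called, 1 of 7, against 16.5% of all genes. The median log2 difference of the tested members was -0.095, -0.10 and -0.0081 in these comparisons, beside 0.0024, -0.0090 and 0.0036 over all genes. Both comparisons in the absence of IFNγ shared the direction of Cd274, Cd276 and Cd47, and they came from separate experiments with their own libraries. Both used the same control guide and the same guide against Sin3b, and no library carried another Sin3b guide. A difference between these edited cells therefore cannot be told apart from an effect of Sin3B loss.

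**Figure D5:**
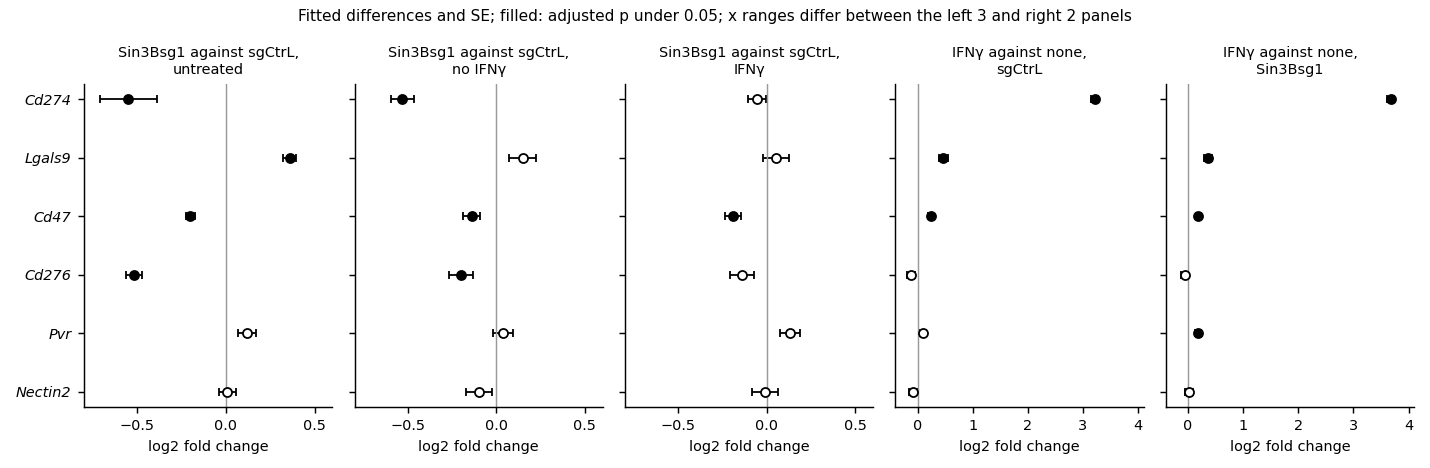
Log2 fold changes with SE of the 6 members with counts in every library, in the 3 genotype comparisons (Sin3Bsg1 against sgCtrL) and the 2 IFNγ comparisons, filled where the edgeR adjusted p was under 0.05. Cd274 is lower in Sin3Bsg1 without IFNγ (-0.55 and -0.53) and near 0 with it (-0.054), and the IFNγ panels have a wider axis.

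Among the 24 genes that govern these ligands or carry the IFNγ signal, all tested, 12 changed with IFNγ in sgCtrL cells (10 higher and 2 lower) and 9 in Sin3Bsg1 cells (6 higher and 3 lower), with list medians of 0.12 and 0.062 on the log2 scale. Over all genes tested, 30.2% were called with IFNγ in sgCtrL and 28.4% in Sin3Bsg1. Of the 24 genes, those that rose included Socs1, the feedback inhibitor of JAK kinases, Irf1 and Irf2. Irf1 rose from 76.0 ± 1.11 to 866.0 ± 12.4 CPM in sgCtrL and from 76.4 ± 1.36 to 904.7 ± 9.55 CPM in Sin3Bsg1 (SD, n = 3). The log2 rises in sgCtrL and Sin3Bsg1 were 4.16 and 4.12 for Socs1, 3.51 and 3.57 for Irf1, and 0.92 and 0.83 for Irf2, with edgeR adjusted p of at most 6.37e-09. The interaction called 0 of the 24 genes by edgeR and 0 by DESeq2, with 3 at an unadjusted p under 0.05.

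Between the genotypes, 2 of these 24 genes were called without IFNγ, Jak2 higher (log2 fold change 0.29, SE 0.046, edgeR adjusted p = 0.000313) and Csnk2a1, a subunit of casein kinase, lower (log2 fold change -0.17, SE 0.043, adjusted p = 0.0129). With IFNγ only Csnk2a1 was called (log2 fold change -0.24, SE 0.042, edgeR adjusted p = 0.00093). Over all genes tested, 17.2% were called without IFNγ, 16.5% with IFNγ and 31.1% in untreated cells. In untreated cells of the first experiment 13 of these 24 genes were called, 6 higher and 7 lower. There Stat3 and Qpct were lower (log2 fold changes -0.28 and -0.76, edgeR adjusted p = 4.07e-07 and 0.0208) and Myc was higher (0.24, adjusted p = 5.89e-05 by edgeR). Qpct had 51 to 89 counts per library, and its call was lost by DESeq2 (adjusted p = 0.11).

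Of 36 further ligands of immune receptors, 17 were tested in untreated cells and 20 in the IFNγ experiment. IFNγ changed 11 of 20 in sgCtrL (8 higher, 3 lower) and 8 of 20 in Sin3Bsg1 (6 higher, 2 lower). Over all genes tested, 30.2% and 28.4% were called in these comparisons. TRAIL (Tnfsf10), a death ligand, rose from 0.137 ± 0.127 to 14.3 ± 1.31 CPM in sgCtrL and from 0.065 ± 0.0785 to 17.5 ± 0.81 CPM in Sin3Bsg1 (SD, n = 3). H2-T23, which encodes the NKG2A ligand Qa-1, rose from 12.3 ± 0.776 to 241.3 ± 4.65 CPM in sgCtrL and from 18.0 ± 1.36 to 330.7 ± 18.8 CPM in Sin3Bsg1. The death receptor Fas, counted in this list though not itself a ligand, rose in both genotypes, as did the adhesion molecule Icam1 and Fgl2. Log2 fold changes in sgCtrL and Sin3Bsg1 were 1.94 and 2.32 for Fas, 2.41 and 2.16 for Icam1 and 1.47 and 3.29 for Fgl2. Fgl2 had at most 22 counts per library, and its adjusted p in sgCtrL was 0.0427 by edgeR. Without IFNγ, Tnfsf10 and Fgl2 had at most 8 counts in a library of this experiment. They passed the filter on low counts only through their IFNγ-treated libraries, so their calls are no independent support for a response of this list.

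The genotypes differed in 10 of the 17 genes of this list tested in untreated cells (7 higher, 3 lower). Without IFNγ they differed in 10 of 20 (5 higher, 5 lower) and with IFNγ in 9 of 20 (3 higher, 6 lower). Over all genes tested, 31.1%, 17.2% and 16.5% were called in these comparisons. Icam1 was higher in Sin3Bsg1 under all 3 conditions (log2 fold changes 0.81, 1.51 and 1.27, edgeR adjusted p = 0.0023, 2.35e-05 and 3.91e-06). H2-T23, Tnfsf15 and the 4-1BB ligand Tnfsf9 were also among the largest in untreated cells (0.84, 0.82 and 0.63). H2-T23 was called higher without and with IFNγ as well (0.56 and 0.45, edgeR adjusted p = 6.29e-05 and 2.74e-05). Tnfsf15 was called without IFNγ (0.65, edgeR adjusted p = 0.0215) but not with it (0.42, adjusted p = 0.133). Its call without IFNγ was kept in 9 of the 12 fits that left out a library. Tnfsf9 was called in neither group of the second experiment (-0.15 and 0.031). Lower in Sin3Bsg1 were the B7 family member Vtcn1 without IFNγ (-2.25, with at most 22 counts per library), Vsir, which encodes VISTA, with IFNγ (-1.51), the NKG2D ligand Raet1e in both groups of the second experiment (-0.99 and -0.90) and the ICOS ligand Icosl with IFNγ (-0.67, adjusted p = 0.0189 by edgeR). Vtcn1 had 3 to 6 counts per library in Sin3Bsg1 without IFNγ and passed the filter on low counts only through its sgCtrL libraries. The Icosl call was kept in 10 of the 12 fits that left out a library. It was lost when only the 6 libraries compared were fitted (adjusted p = 0.0507 by edgeR). The interaction called 0 of the 20 by edgeR and 0 by DESeq2, with 0 at an unadjusted p under 0.05.

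Of 11 receptors for these ligands, which are genes of immune cells, Pdcd1, Cd226 and Pvrig had no count in any library. Cd28 and Ctla4, named here after their values were seen, nevertheless had counts in these cultures. Cd160 and Tigit also had more than 3 counts in a library of every group, and Havcr2 and Sirpa in some groups. Tigit rose with IFNγ in sgCtrL (log2 fold change 2.06, SE 0.39, edgeR adjusted p = 0.000775) and was not called in the other comparisons. Cd28 was 1.27 ± 0.0803 CPM in untreated Sin3Bsg1 against 4.09 ± 0.132 in sgCtrL (SD, n = 2), 11.5 ± 0.418 against 21.3 ± 1.25 without IFNγ and 23.8 ± 1.42 against 28.4 ± 2.13 with IFNγ (SD, n = 3). Those differences were -1.68, -0.89 and -0.25 on the log2 scale (edgeR adjusted p = 2.47e-05, 1.24e-06 and 0.0241), the last of which had an adjusted p of 0.0608 without the replicate 1 that stood apart and was called in 8 of the 12 fits that left out a library. The interaction for Cd28 was 0.63 (SE 0.11, edgeR adjusted p = 0.0341) and was called in 1 of those 12 fits. Ctla4 was lower in Sin3Bsg1 in untreated cells (log2 fold change -2.74, SE 0.35, edgeR adjusted p = 1.52e-05) and was not called without IFNγ (-1.41, SE 0.6, adjusted p = 0.131). With IFNγ it had 9 to 25 counts per library in sgCtrL and 0 to 2 in Sin3Bsg1, under the floor, and was called lower there (edgeR adjusted p = 0.00258), with no fold given. In the second experiment Ctla4 passed the filter on low counts only through its sgCtrL libraries, so that call is no independent support for a difference. Cd3e had no count in any of these libraries, and the source of the Cd28 and Ctla4 reads was not tested.

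The genes whose levels tracked each IFNγ-responsive member most closely over the 12 libraries of the second experiment were named by Pearson's r of log2 CPM with a pseudocount of 0.5, among genes with a mean of at least 5 CPM. These r values share the group structure of the 12 libraries and are a description. For Cd274 they were Ly6c1, Nlrc5 and Gbp9 (each r = 0.999). For Tnfrsf14 they were Parp11 (r = 0.993), 9930111J21Rik2 (r = 0.991) and Cenpj (r = 0.991). For Lgals9 they were Wbp11 (r = 0.975), Znrf1 (r = 0.973) and Pnpla2 (r = 0.966), and for Cd47 they were Hspa4 (r = 0.983), Fam111a (r = 0.981) and Grk6 (r = 0.981). Pvr had weaker neighbours, of which Nup62 was the closest (r = 0.898), followed by Rai14 (r = 0.883) and Cdk11b (r = 0.882).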

How the data were processed

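The authors deposited estimated counts per gene (7.86 to 14.5% of values in a library were not whole) in 1 table per experiment with gene lengths and group means, without normalization. The submitters' processing notes name fastp, HISAT2, StringTie, DESeq2 and mm39, whereas the methods of the study give HISAT2 to mm9 and featureCounts. Versions, annotation and strand setting are not given in the sources used here. Of the table of untreated cells, 324 assembled loci without a gene name (0.615 to 0.677% of counts) were left out. Group means were not used. Counts were rounded and tested with edgeR 4.0.16 (TMM, filterByExpr, quasi-likelihood, two-sided) in R 4.3.3, with a separate fit per experiment, SE as the absolute log2 fold change over the root of F, and Benjamini-Hochberg adjustment over 14589 and 14913 genes (threshold 0.05). CPM used TMM library sizes, and TPM the deposited lengths. DESeq2 1.42.0, RLE factors, other filters, a replicate block, left-out libraries and fits of 6 libraries were alternatives. The spread between replicates was a biological coefficient of variation of 2.84% and 6.78%. The members and lists were chosen with earlier results of these data known. Of the other lists at most 4 genes per comparison were named, by the largest change past the threshold, and some items are not reported here. Positions are from GENCODE on GRCm39 and promoters from RefSeq on GRCm38.p6. Tables and figures were made with Python 3.11.15, pandas 2.3.3, scipy 1.17.1 and matplotlib 3.10.9.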

Additional observations from a re-analysis of the deposited data

Results flagged for a closer look

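The IFNγ response of Cd274 differed between the genotypes by a test of the difference itself, the interaction of genotype and IFNγ in the fit of 12 libraries. It was 0.47 larger on the log2 scale in Sin3Bsg1 cells (edgeR adjusted p = 0.0454), in which all 3 untreated libraries were lower than those of sgCtrL and the treated libraries overlapped. The call was lost in 10 of the 12 fits that left out a library, with RLE size factors (adjusted p = 0.0602), with at least 10 counts in every library (0.0599) and with the replicate block (0.101), all by edgeR.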

How the results depend on the processing

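The number of members called was 4 between the genotypes without IFNγ and became 2 with RLE size factors, 1 with at least 10 counts in every library, and 1 to 5 when a library was left out. With IFNγ it was 1 and became 0 when only the 6 libraries compared were fitted, and 1 to 2 without a library. For the interaction it was 1 and became 0 with RLE size factors and with at least 10 counts in every library, and 0 to 1 without a library. It was 3 to 4 without a library in untreated cells, 4 to 6 for IFNγ in sgCtrL and 4 to 6 for IFNγ in Sin3Bsg1. Over all genes the interaction called 17 genes by edgeR, 32 by DESeq2 and 110 without a filter on low counts.

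Same-numbered libraries deviated from their group means with r of -0.13 to 0.25 in the IFNγ experiment and 0.01 in the untreated one, so the numbers were not taken to pair the samples. With the replicate number as a block, the members called were 2 without IFNγ, 0 for the interaction (Cd274 0.47, adjusted p = 0.101) and 4 in untreated cells.

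Fitted differences that changed sign had passed no test in the reported fits. Nectin2 in untreated cells ran from -0.028 to 0.043 without a library (-0.02 without sgCtrL replicate 2). Its genotype difference with IFNγ ran from -0.066 to 0.097 (0.018 without Sin3Bsg1 replicate 1). Its IFNγ response in Sin3Bsg1 was -0.0076 by DESeq2 and with RLE size factors and -0.013 with at least 10 counts, and ran from -0.043 to 0.048 without a library (-0.021, -0.011 and -0.0064 among these). Pvr without IFNγ ran from -0.0088 to 0.084. Lgals9 ran from -0.041 to 0.17 with IFNγ and from -0.19 to 0.0068 for the interaction, and the IFNγ response of Ctla4 in sgCtrL from -0.34 to 0.81. Of 1409 values of single genes under alternatives, 1302 kept direction and side of the threshold, 87 lost the call and 5 gained it. The causes were not tested. Counts limit Pdcd1lg2, Cd80, Cd86 and, without IFNγ, Tnfrsf14.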
